A study of Mus musculus with 8 samples.

Results

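The very strong distal peaks are 302 sites of open chromatin in mouse embryonic stem cells, among 134407 peaks measured. A peak belongs here when it lies on chromosomes 1 to 19, its value averages at least 300 over the 8 libraries, and its centre is more than 5 kb from both ends of every protein-coding gene of assembly GRCm38. Of 2527 autosomal peaks that reach this strength, 2225 lie within 5 kb of a gene end. The 302 members make up 0.322% of the 93805 distal autosomal peaks. The members were chosen by their mean over all libraries, so their strength is a description. The contrast between the groups was not a criterion, but the mean includes the paused values, so that higher paused values help a peak to reach 300: 196 members had a control mean of at least 300, the other 106 had one below it, and 0 had a paused mean below it.

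The cells were E14, an established wild-type embryonic stem cell line from the mouse, grown on gelatin in serum with LIF, the cytokine that sustains self-renewal. The control group has 4 libraries of cells without pausing, and the paused group has 4 of cells to which INK128, an inhibitor of the mTOR kinase, was given at 200 nM for 24 h. All libraries share the line, the genotype and the medium, and they were made by ATAC-seq from 50000 live cells each. The labels do not say whether replicates of a group came from separate cultures, so that p-values measure the spread between these libraries, which may be technical.

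ATAC-seq uses the transposase Tn5, which cuts and tags DNA where nucleosomes and other proteins leave it exposed. Promoters of active genes, enhancers, boundary sites bound by CTCF and genes read by RNA polymerase III are known to be open in this way. The mTOR kinase joins nutrient and growth factor signals to protein synthesis, and its inhibition in mouse embryonic stem cells induces a reversible dormant state known as pausing, which resembles embryonic diapause. Accessibility at a site does not tell which gene, if any, the site acts on; here each peak is named after the protein-coding gene with the nearest end.

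Although every member lies far from the outer ends of genes, 91 of the 302 (30.1%) overlapped the window around an annotated transcription start, from 250 bases before to 50 bases after it. This share was 7.24% among the 8354 distal peaks with a mean of 100 to 300, 1.89% among all distal peaks tested, and 74.8% among strong peaks near a gene end. Of the 91, 68 were at a start of a protein-coding gene, and all 68 lay inside the gene concerned, at a start internal to its annotated span. For 59 of the 68 that gene was also the one with the nearest end. Another 23 were at starts of non-coding genes alone. The RefSeq table of starts covers 17492 of 21887 protein-coding genes and 18 of the 19 autosomes, holding 295 of the 302 members, so these are minimum counts.

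Start sites were rich in CG dinucleotides. The 300-base windows of the 68 coding starts had a median GC content of 64.7% and a median of 24 CG dinucleotides, against 56.3% and 13 over all coding windows. At the 23 non-coding starts the medians were 62.7% and 23, against 48.3% and 4 over all non-coding windows. At least 10 CG dinucleotides stood in 65 of the 68 coding windows of members (56.8% of all coding windows) and in 20 of the 23 non-coding ones (19.1% of all non-coding windows). These are descriptions of annotated windows, which are no replicates. Windows at strong peaks near a gene end were not compared, here or for the motifs below.

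The sequences below show what such starts look like at 8 members, picked after their values were known. They include strong internal coding starts, an internal start far from any gene end, and starts of non-coding RNAs. Each is the part of the 201 bp peak that lies within 250 bases upstream of the start, read in the direction of transcription. Ddx50, which encodes a nucleolar RNA helicase, is shown at chr10:62651219-62651403 on the minus strand. E2f2, a cell cycle transcription factor gene, is shown at chr4:136180534-136180734, plus strand. Kctd7, a gene of the potassium channel tetramerisation domain family, is shown at chr5:130144727-130144882, plus strand. Tef, which encodes a PAR bZIP transcription factor, is shown at chr15:81811262-81811413, plus strand. Nrxn3, the gene of a neuronal adhesion protein, is shown at chr12:89812266-89812466, plus strand. Chaserr, a long non-coding RNA beside the chromatin remodeller gene Chd2, is shown at chr7:73558509-73558645, minus strand. Mir22hg, the host gene of miR-22, is shown at chr11:75461384-75461538, plus strand. Platr22, a non-coding RNA of the series of pluripotency-associated transcripts, is shown at chr1:136696023-136696210, plus strand. Coordinates are GRCm38.p6 and the letters are from RefSeq. Capitals mark matches to the 7 short motifs searched.
Ddx50: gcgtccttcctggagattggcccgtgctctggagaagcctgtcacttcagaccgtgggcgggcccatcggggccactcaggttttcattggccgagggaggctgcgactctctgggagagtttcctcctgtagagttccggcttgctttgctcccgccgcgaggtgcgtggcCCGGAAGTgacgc
E2f2: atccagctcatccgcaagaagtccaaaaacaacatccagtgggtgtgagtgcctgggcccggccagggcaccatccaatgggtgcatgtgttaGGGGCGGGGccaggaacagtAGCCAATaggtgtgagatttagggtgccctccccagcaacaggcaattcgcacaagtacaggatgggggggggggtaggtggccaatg
Kctd7: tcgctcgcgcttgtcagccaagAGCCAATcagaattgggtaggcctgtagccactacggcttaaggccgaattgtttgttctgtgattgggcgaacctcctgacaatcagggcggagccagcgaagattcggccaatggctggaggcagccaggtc
Tef: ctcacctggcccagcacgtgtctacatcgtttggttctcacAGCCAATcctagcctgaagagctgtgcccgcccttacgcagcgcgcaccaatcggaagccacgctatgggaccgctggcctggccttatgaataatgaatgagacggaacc
Nrxn3: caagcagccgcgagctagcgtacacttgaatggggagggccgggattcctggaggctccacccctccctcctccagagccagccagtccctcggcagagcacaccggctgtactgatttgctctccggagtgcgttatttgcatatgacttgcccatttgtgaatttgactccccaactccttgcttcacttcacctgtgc
Chaserr: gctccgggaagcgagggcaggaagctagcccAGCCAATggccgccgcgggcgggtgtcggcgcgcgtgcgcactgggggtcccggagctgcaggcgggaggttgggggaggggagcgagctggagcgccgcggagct
Mir22hg: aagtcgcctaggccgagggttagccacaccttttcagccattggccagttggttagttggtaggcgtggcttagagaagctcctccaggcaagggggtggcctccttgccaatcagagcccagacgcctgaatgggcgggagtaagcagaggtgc
Platr22: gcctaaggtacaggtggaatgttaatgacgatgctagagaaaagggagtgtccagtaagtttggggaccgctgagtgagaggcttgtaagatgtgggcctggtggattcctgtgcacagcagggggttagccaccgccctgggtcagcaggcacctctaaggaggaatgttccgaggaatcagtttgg

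The capitals mark AGCCAAT, the core bound by NF-Y, in E2f2, Kctd7, Tef and Chaserr. They mark GGGGCGGGG, a box read by Sp and Klf factors, in E2f2, and CCGGAAGT, an ETS motif, in Ddx50. The sequences of Nrxn3, Mir22hg and Platr22 hold none of the motifs. Searched on both strands of the 300-base windows, GGGGCGGGG was present in 26.4% of the 91 start members and 11.4% of the 32851 windows of the table. The share for AGCCAAT was 17.6% against 7.86%, and for CCGGAAGT 7.69% against 3.89%. At coding starts alone, GGGGCGGGG was in 30.9% of members and 15.4% of coding windows, AGCCAAT in 17.6% and 9.27%, and CCGGAAGT in 5.88% and 5.15%, a smaller gap. TATAAA was found in 3.30% against 13.6%, GCATGCGC, the NRF1 motif, in 2.20% against 2.71%, TGACGTCA, the cyclic AMP response element, in 1.10% against 1.79%, and AAGATGGCG, the YY1 motif, in 2.20% against 1.40%. A match is a run of letters and not a measured binding site. The windows of members were richer in GC than the windows compared, and the shares were not adjusted for this. A difference in motifs therefore cannot be told apart from one in base composition.

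The other members were spread over the genome. Another 102 lay inside a protein-coding gene but outside the start windows, 106 lay between genes, and 3 were at a small RNA gene. Some of these were still close to a start: with the 91 start members, 113 members had a listed start within 1 kb of their centre. Counting start members too, 179 (59.3%) were inside a protein-coding gene and 123 between genes, 29 of the latter inside a long non-coding RNA gene. Distance to the nearest gene end had a median of 14551 bp. It was under 10 kb for 106 members, over 50 kb for 51 and over 100 kb for 15, up to 522569 bp at the internal start of Nrxn3. Members were nearest to 289 distinct genes and did not form clusters: 4 pairs lay within 10 kb of each other, near Ptma, Src, Nlrp12 and Tns3, and no group of 3 was found. Chromosome 7 held 35 members, 0.662% of its distal peaks, and chromosomes 9 and 16 held 6 each, 0.122% and 0.173% of theirs.

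**Figure D1:**
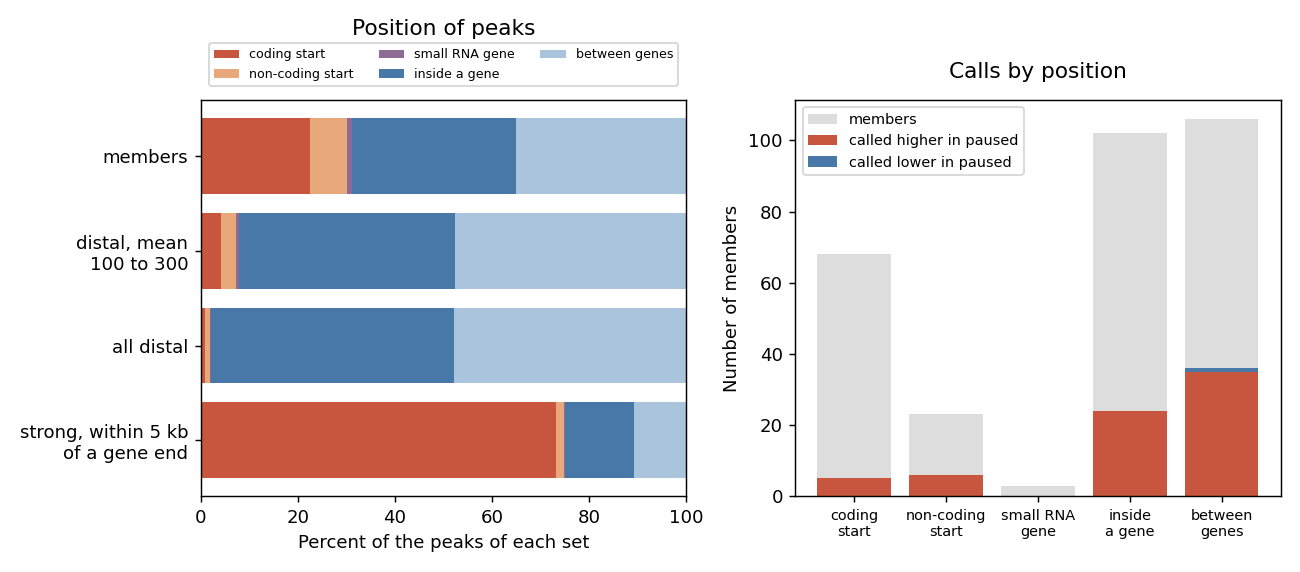
Left, percent of peaks (x axis) by position in 4 sets; right, number of members (y axis) in each position, with those called higher or lower in paused cells at adjusted p under 0.05. Starts take up 30.1% of the members, and 11 of the 91 start members were called higher, against 59 of the other 211.

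Control replicate 3 had the fewest reads in peaks, 4434037, and control replicate 1 the most, 21161767, and the median member held between 193 and 842 reads per library. Deposited values are reads divided by a factor per library. The coefficient of variation among replicates had a median over members of 10.6% in control and 9.71% in paused cells, near the 10.3% and 9.98% of strong peaks near a gene end. As a check of the label, 7 of 8 embryonic stem cell genes had a peak within 5 kb, Dppa5a being the exception, and their strongest peaks averaged 37.8 to 455. All 5 genes listed for fibroblasts (25.4 to 156), all 5 for primitive endoderm (48.7 to 298) and all 4 for trophoblast (49.6 to 293) also had peaks, so open gene ends do not separate these cell types; no other cell type's part in the results was tested.

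On the deposited scaling, the paused libraries had more signal at nearly all members and at nearly all strong peaks near a gene end. The sum of member values was 88585 to 101810 in the 4 control libraries (mean 96815 ± 6041, SD) and 105744 to 122134 in the 4 paused libraries (112563 ± 7783), so that the groups did not overlap and the paused mean was 16.3% higher. Over all peaks the excess was 11.5%, over strong peaks near a gene end 15.1%, and over distal peaks of 100 to 300 it was 17.3%. The sums over all peaks did not overlap between the groups either, at 7315541 to 7653989 in control and 8062921 to 8640948 in paused libraries. As a share of all reads in peaks, members held 1.29% ± 0.0616 (SD) in the control group and 1.35% ± 0.0531 in the paused group, a difference of 0.0543 percentage points, similar to the SDs. The highest of the 8 values fell in paused replicate 3 for 175 members and in paused replicate 4 for 64, and the lowest in control replicate 1 for 152, which is also the deepest library.

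**Figure D2:**
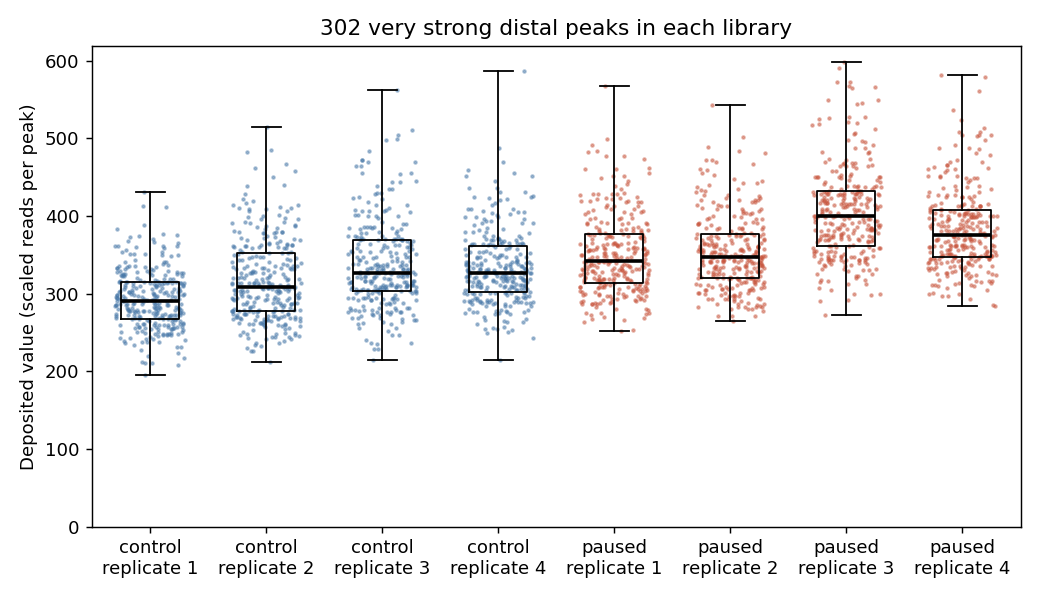
Deposited value (y axis, scaled reads per peak) of each of the 302 members in the 8 libraries (x axis); boxes give the middle 50%, the thick line the median and the whiskers the full range. The medians run from 291 to 327 in control and from 342 to 400 (399.5) in paused libraries.

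With the limma-trend fit over all 127402 peaks tested, 70 of the 302 members (23.2%) were called higher in paused cells at a Benjamini-Hochberg adjusted p under 0.05, where 11.0% of all tested peaks were called higher. Because paused values helped to choose the members, the count is no independent measure: it was 31 of the 196 (15.8%) with a control mean of at least 300 and 39 of the 106 (36.8%) below it. Among all 199 distal peaks whose control mean alone reached 300, a choice that favours high control values, 31 (15.6%) were called higher, and among all 438 whose paused mean did, 131 (29.9%) were. One member (0.331%) was called lower, where 2.91% of all tested peaks were. On the same choice of members, the log2 change was above 0 at 292 members (96.7%) and below 0 at 10. It was above 0 at 99.0% of strong peaks near a gene end, 84.7% of distal peaks of 100 to 300 and 61.3% of all tested peaks. The median change was 0.22 over members, against 0.10 over all tested peaks. It was 0.20 over strong peaks near a gene end, of which 11.8% were called higher, and 0.22 over distal peaks of 100 to 300, of which 27.4% were. All 4 paused values exceeded all 4 control values at 64 members (21.2%, against 13.0% of tested peaks), and the reverse held at 0 members (against 4.36%). Strong peaks near a gene end had all paused values higher at 18.4%, and distal peaks of 100 to 300 at 30.1%. The reverse held at 0% and 1.39% of these sets.

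Changes at the members were small. The ratio of group means ranged from 0.802 to 1.46 with a median of 1.16, and no member reached 1.5. In the distal peaks of 100 to 300, 639 (7.65%) had a ratio of 1.5 or more, up to 2.77, and 0 of the strong peaks near a gene end did, with a largest ratio of 1.46. Called rises had log2 changes from 0.30 to 0.53, with a median of 0.35, and the standard error of a member's change had a median of 0.11, or 7.69% in fold. At an unadjusted limma-trend p under 0.05, 152 of the 302 members were higher and 1 was lower. Of all tested peaks, 21.1% were higher and 7.61% lower. These counts are on the deposited scaling, for members chosen partly by their paused values.

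How many members were called depended on the scaling of the libraries. With TMM rescaling in limma-trend, which moved the median of all tested peaks from 0.10 to -0.01, 14 members were called higher and 1 lower, against 5.79% and 4.29% of all tested peaks, and the members' median was 0.11. A loess correction, which removes from each library any trend of the change with peak strength, left 6 higher and 2 lower, against 5.10% and 3.50%, and by its construction brought the members' median to 0.01. Single libraries mattered too. Without paused replicate 4, 20 members (6.62%) were called, all higher, against 7.02% of all peaks tested, so that the members' share was near the background. Without paused replicate 3, 32 were called and 31 (10.3%) were higher, against 9.29%, and without control replicate 1 again 32 were called and 31 (10.3%) were higher, against 8.38%. The 64 non-overlapping members and the sums above are likewise on the deposited scaling.

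**Figure D3:**
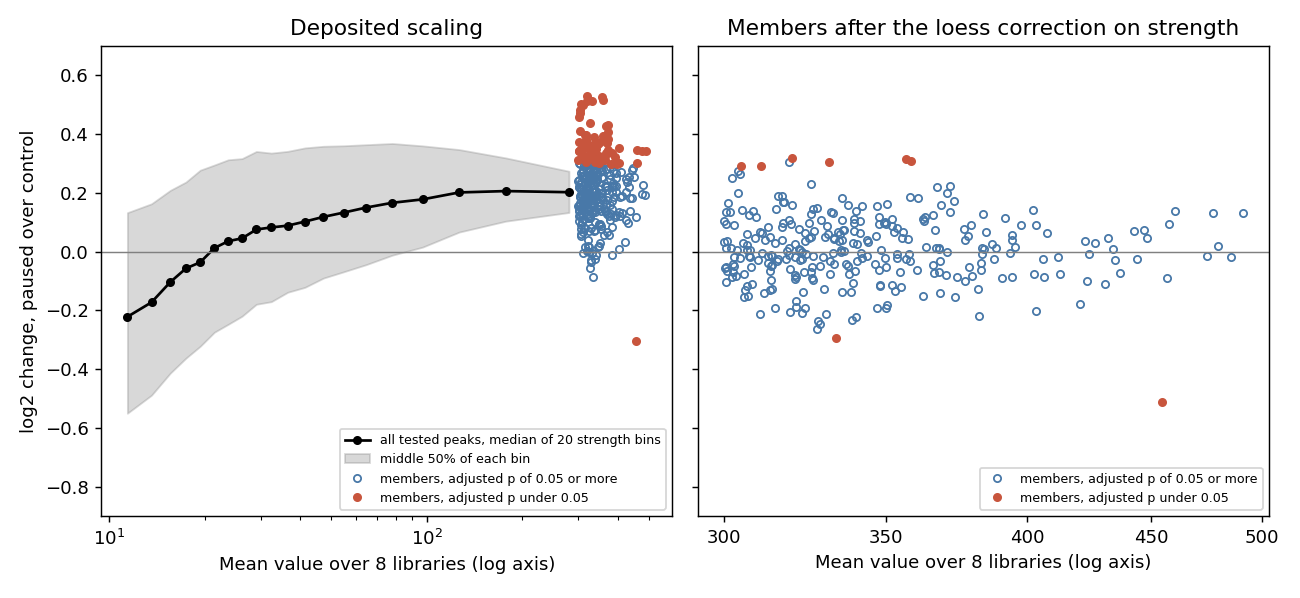
Log2 change, paused over control (y axis), against the mean value over 8 libraries (x axis, log scale). Left, the 302 members on the deposited scaling beside the median and middle 50% of all tested peaks in 20 strength bins, whose medians run from -0.22 in the weakest to 0.20 in the strongest; right, the members after the loess correction, where 6 rises and 2 falls pass the threshold.

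**Figure D4:**
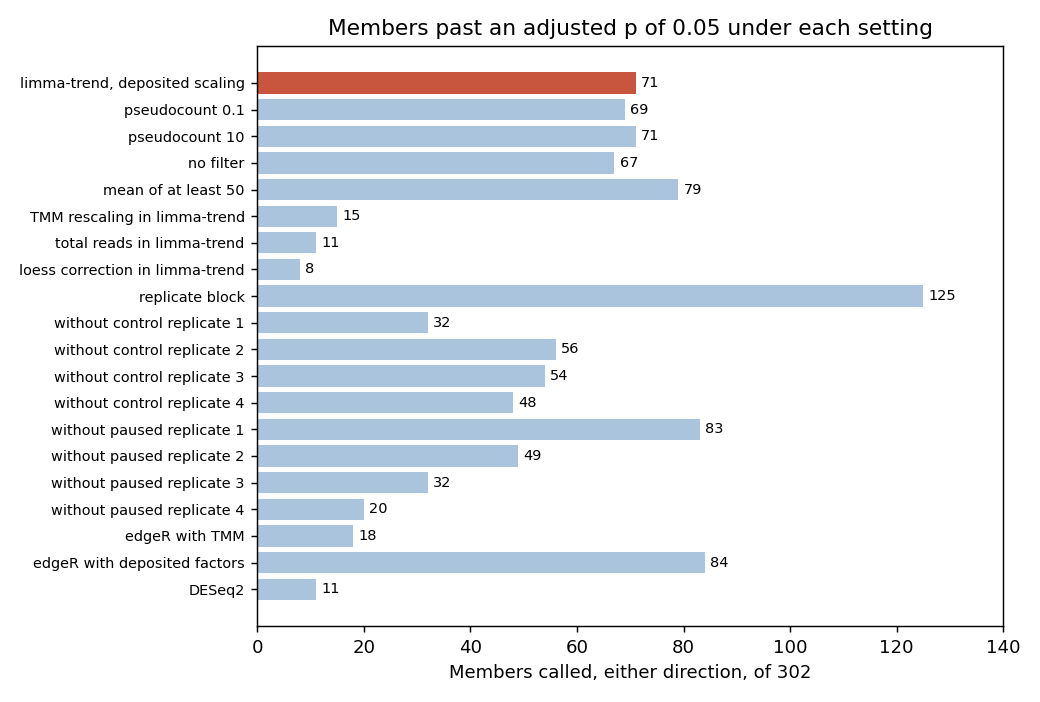
Number of the 302 members called in either direction at adjusted p under 0.05 (x axis) under each test, scaling, filter or left-out library (y axis). The deposited scaling in limma-trend gives 71, the loess correction 8 and the replicate block 125.

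By position, on the deposited scaling, the calls are given as counts, and differences between positions were not tested. Of 68 members at coding starts, 5 (7.35%) were called higher, at internal starts of Tef, Sp2, Dgkz, Iffo2 and Cep70. Of 23 at non-coding starts, 6 (26.1%) were, those of Hk1os, Platr22, Gm32755, Gm29638, Gm2885 and Gm10190. Inside genes 24 of 102 (23.5%) were called higher and between genes 35 of 106 (33.0%). Over all tested peaks, 11.2% of those at coding starts, 13.8% at non-coding starts, 9.36% inside genes and 12.7% between genes were called higher. Among distal peaks of 100 to 300, which are nearer in strength, these shares were 11.9%, 23.4%, 25.9% and 30.8%. The median log2 changes were closer, 0.19 over all 91 start members and 0.22 over the other 211.

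At the start of Platr22, between genes and 65732 bp from the transcription factor gene Zfp281, control values were 328.76, 292.61, 377.6 and 358.56, and paused values 412.98, 413.25, 403.42 and 481.52. Every paused value lay above every control value, with a log2 change of 0.34 (SE 0.10, adjusted p = 0.0258). At the internal start of Tef, control values were 334.98, 371.44, 367.44 and 370.31 and paused values 404.9, 455.83, 498.06 and 424.11. The groups again did not overlap, and the log2 change was 0.30 (SE 0.10, adjusted p = 0.0391). Neither site was called under TMM or loess scaling, where no start member was called higher.

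The internal start of Nrxn3 gave no call, with control values of 296.61, 311.72, 374.22 and 289.49 and paused values of 287.24, 264.98, 383.24 and 363.19. Its groups overlapped, and the log2 change was 0.02 (SE 0.12, adjusted p = 0.931). The starts of E2f2 (0.13, SE 0.10), Chaserr (0.12, SE 0.10) and Kctd7 (0.10, SE 0.13) were not called either, with adjusted p of 0.395, 0.472 and 0.650. That of Mir22hg had a log2 change of 0.24 (SE 0.11, adjusted p = 0.131).

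The strongest members averaged 444.1 to 491.1, and their loci had varied functions. First by mean was a peak at chr13:55190213-55190413, 19469 bp from Nsd1, which encodes a histone H3 lysine 36 methyltransferase. Its control values were 431.08, 401.3, 472.43 and 426.15 and its paused values 477.57, 542.58, 598.92 and 578.76. The groups did not overlap, and the log2 change was 0.34 (SE 0.10, adjusted p = 0.0175). It was called in 12 of 20 fits, with an adjusted p of 0.105 under TMM rescaling and 0.319 after the loess correction. It was followed by an internal start of the histone deacetylase gene Hdac4, with control values of 411.38, 484.9, 455.49 and 459.95 and paused values of 461.43, 501.57, 572.54 and 536.58. These overlapped, and the log2 change of 0.19 (SE 0.10) was not called (adjusted p = 0.196).

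Next by mean came chr6:122810890-122811090, between genes, 8627 bp from Slc2a3, the gene of a high-affinity glucose transporter, and 96.4 kb from the pluripotency gene Nanog. Control values there were 361.94, 421.6, 499.52 and 487.87, and paused values 460.27, 481.07, 564.78 and 561.18. The groups overlapped, and the log2 change was 0.23 (SE 0.11, adjusted p = 0.148). A site inside Mapt, the gene of the microtubule protein tau, had a log2 change of 0.34 (SE 0.11, adjusted p = 0.0256), with means of 422.04 ± 63.9 in control and 532.34 ± 49.0 in paused cells (SD, n = 4 each). Its groups overlapped as well, through a control value of 497.83, and it was called in 11 of 20 fits (adjusted p = 0.136 under TMM rescaling).

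Of the remaining 8 of the 12 strongest, sites inside Btbd9 and 26452 bp from Tead4, a transcription factor gene of the Hippo pathway, were called higher, with log2 changes of 0.35 (SE 0.10, adjusted p = 0.0202) and 0.30 (SE 0.10, adjusted p = 0.0405). Each was called in 10 of 20 fits, with adjusted p of 0.125 and 0.201 under TMM rescaling in limma-trend. Internal starts of Ddx50 (0.20), Evi5 (0.28) and Mesd (0.12), a site inside Arhgap26 (0.26) and one 39744 bp from Eif4g2 (0.18), whose product is a translation factor related to eIF4G, were not called. The remaining peak of the 12 was the member called lower. Of all 32 members with a mean of at least 400, 7 passed the threshold on the deposited scaling, 6 (18.8%) higher and 1 lower. Over all tested peaks, 11.0% were called higher and 2.91% lower.

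Abt1, whose product is a basal transcription activator, had the nearest gene end to the called fall, a peak between genes at chr13:23401776-23401976. A valine tRNA gene, n-TVaac2, lies 731 bp from its centre. Control values were 413.45, 457.43, 562.17 and 586.33 and paused values 376.06, 408.51, 432.9 and 403.02. The lowest control value, in replicate 1, lay within the paused range and the others above it, and the log2 change was -0.30 (SE 0.11, adjusted p = 0.0496). It was -0.41 with TMM rescaling and -0.51 after the loess correction (adjusted p = 0.000104). The site was called in 13 of 20 fits: the call was lost with a pseudocount of 0.1 (adjusted p = 0.0502), with no filter (0.0527) and without control replicate 3 (0.177), control replicate 4 (0.213), paused replicate 1 (0.116), paused replicate 2 (0.0882) or paused replicate 4 (0.115).

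Transfer RNA genes, which RNA polymerase III transcribes, stood within 1 kb of 6 members. Besides the one named for Abt1, these were 464 bp or less from their tRNA gene and nearest to Uspl1 (log2 change 0.22), Stx11 (0.29), H2bc11 (0.13), Sesn2 (0.08) and Spdya (0.04). None of these 5 was called, that of Stx11 having an adjusted p of 0.0566. Other small RNA genes stood within 1 kb of 4 more members, and these had log2 changes from 0.15 to 0.21 without a call. The background was counted at a narrower limit, within 100 bp of a small RNA gene and outside the start windows. Of all such tested peaks, 2.77% were called higher and 15.4% lower, with a median log2 change of -0.07. Among such distal peaks of 100 to 300, these values were 7.02%, 21.1% and -0.17.

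The 10 largest called rises had log2 changes between 0.46 and 0.53, and all 10 had a control mean below 300, from 252.99 to 294.89, so that they are members through their paused values. The top of these, at chr5:33535610-33535810 between genes and 64641 bp from Fam53a, had control values of 238.88, 241.26, 260.77 and 301.25 and paused values of 316.08, 323.34, 415.83 and 462.77. All paused values lay above all control values, with a log2 change of 0.53 (SE 0.12, adjusted p = 0.00188). At chr4:141570129-141570329, 5833 bp from Fblim1, which encodes a filamin-binding adaptor of cell adhesions, control values were 278.98, 320.08, 294.63 and 273.33. Its paused values of 389.9, 375.39, 463.93 and 456.91 were all higher, and the log2 change was 0.53 (SE 0.10, adjusted p = 0.000625).

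A pair of rises lay 17529 and 30416 bp from Zfp640, a zinc finger gene, at chr13:66698232-66698432 and chr13:66711119-66711319. The nearer had control values of 249.25, 304.56, 276.01 and 349.74 and paused values of 361.07, 391.16, 449.96 and 486.2, with a log2 change of 0.52 (SE 0.11, adjusted p = 0.00159). The farther had control values of 257.2, 279.48, 215.05 and 301.25 and paused values of 404.9, 406.94, 338.25 and 349.13, with a log2 change of 0.51 (SE 0.11, adjusted p = 0.00151). Groups did not overlap at either, although paused replicates 3 and 4 were the highest at the nearer site and the lowest at the farther.

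Inside Vash1, the gene of vasohibin, a tubulin carboxypeptidase, chr12:86688135-86688335 had control values of 250.98, 247.23, 264.15 and 332.11 and paused values of 361.07, 359.62, 406.52 and 431.14. The groups were apart and the log2 change was 0.51 (SE 0.11, adjusted p = 0.00127). Inside Tns3, which encodes the adhesion protein tensin 3, chr11:8575773-8575973 had control values of 246.48, 211.4, 289.55 and 264.51 and paused values of 332.23, 337.54, 381.69 and 376.07. These too were apart, with a log2 change of 0.50 (SE 0.11, adjusted p = 0.00161). Its neighbour 6188 bp away had a log2 change of 0.18 (SE 0.11) and was not called.

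Inside Brd1, the gene of a bromodomain subunit of histone acetyltransferase complexes, chr15:88708784-88708984 had control values of 211.91, 268.73, 272.62 and 277.74 and paused values of 343.76, 337.54, 417.38 and 356.16. The log2 change was 0.50 (SE 0.11, adjusted p = 0.00183), with no overlap and a low control replicate 1. These sites at Fam53a, Fblim1, the nearer Zfp640 site, Vash1, Tns3 and Brd1 were the 6 members called higher in all 20 fits run, over tests, scalings, filters, the replicate block and left-out libraries. Their log2 changes after the loess correction were between 0.29 and 0.32, with adjusted p from 0.0131 to 0.0405. All 6 had a control mean below 300, so they are members through their paused values. The share of all tested peaks called higher in every fit was not counted. After the loess correction alone, 5.10% of all tested peaks were called higher, against 1.99% of members.

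The remaining rises were called in part of the fits. Inside Akap12, whose product anchors protein kinase A, control values were 248.9, 273.5, 237.06 and 254.22 and paused values 349.53, 340.69, 335.15 and 392.48. The groups did not overlap, with a log2 change of 0.48 (SE 0.10, adjusted p = 0.00149). At a site 21213 bp from Gli2, a transcription factor gene of the Hedgehog pathway, control values were 246.48, 249.62, 228.59 and 293.9 and paused values 320.69, 317.03, 380.14 and 383.1, again without overlap (0.46, SE 0.11, adjusted p = 0.00363). Akap12, Gli2 and the farther Zfp640 site were called in 19 of the 20 fits, the loess correction being the one in which they were not (adjusted p = 0.0518, 0.0799 and 0.0604).

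The start of Gm10190, a non-coding gene inside Arhgef33 and 20181 bp from the Ras activator gene Sos1, had control values of 194.97, 348.75, 270.93 and 214.55 and paused values of 370.29, 280.75, 415.83 and 339.76. Control replicate 2 was above 2 of the paused values. The log2 change was 0.47 (SE 0.13, adjusted p = 0.0135), and the site was called in 13 of 20 fits.

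**Figure D5:**
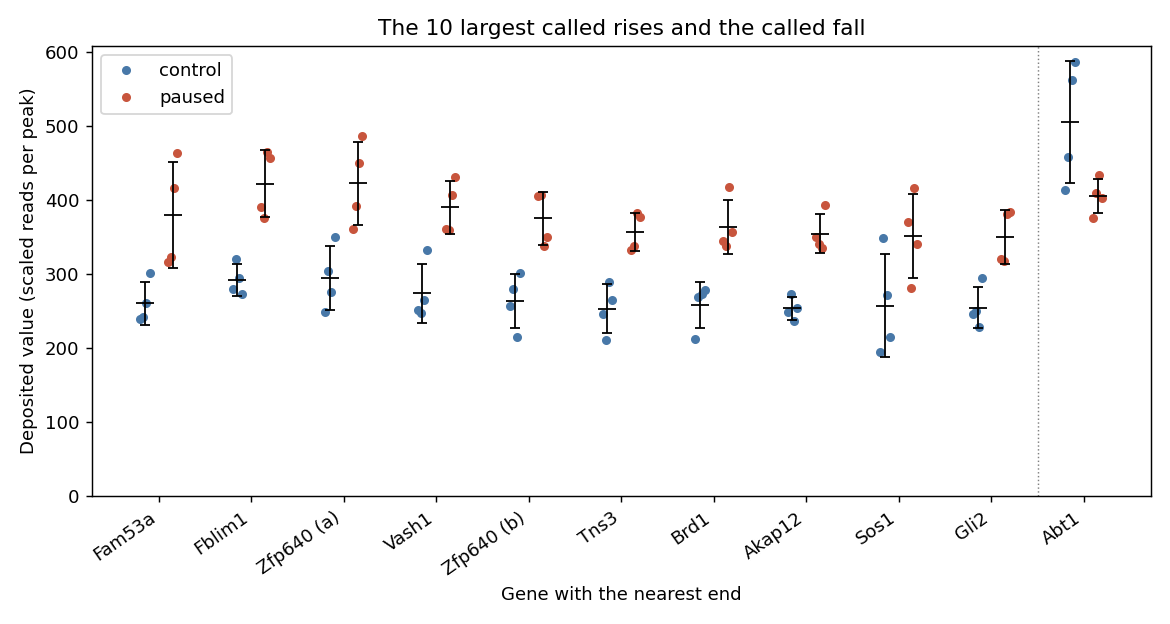
Deposited values (y axis, scaled reads per peak) of the 10 largest called rises and, right of the dotted line, the called fall; each point is a library and bars give mean ± SD of 4 libraries. The groups are apart at 9 of the 10 rises, and they overlap at the site near Sos1 and at that near Abt1; (a) and (b) are the nearer and the farther site of Zfp640.

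Few members were nearest, within 100 kb, to genes of the pathways on which pausing bears, as few distal peaks of any kind (0.322%) are members. Of 26 pluripotency genes, 23 of Nodal, Smad2 and BMP signalling and 19 of germ layers and trophoblast, 0 were, and 353, 181 and 154 distal peaks tested were nearest to these genes, too few to read an absence of members from. LIF and Stat3 signalling had 1 member, 39451 bp from Pim1, a kinase gene that Stat3 induces. Its control values were 328.07, 265.14, 386.07 and 311.53 and its paused values 365.68, 358.04, 431.34 and 459.26. A log2 change of 0.33 (SE 0.11, adjusted p = 0.0448) was called although the groups overlapped, and the site was called in 10 of 20 fits (adjusted p = 0.199 with TMM and 0.494 after the loess correction).

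Among 27 genes of cell growth and Myc, a site inside Ccnd3, which encodes the G1 cyclin D3, was called. Its control values were 265.49, 246.03, 292.94 and 283.61 and its paused values 302.23, 358.04, 404.97 and 373.73. They did not overlap, with a log2 change of 0.40 (SE 0.11, adjusted p = 0.0108), and the site was called in 16 of 20 fits. Single members stood for 3 other lists without a call: inside the ETS factor gene Etv5 for FGF and Erk (0.16, SE 0.11, adjusted p = 0.337), inside Tcf7l1, a repressor of Wnt targets, for Wnt (0.07, SE 0.11, adjusted p = 0.700), and 22215 bp from Srebf1, the lipid synthesis regulator, and inside Rai1 for Pparg and lipid (0.25, SE 0.10, adjusted p = 0.0886).

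The list of 30 mTOR and autophagy genes had 2 members, at genes of sestrins, which restrain mTORC1 when amino acids are scarce. At an internal start of Sesn1, control values were 256.16, 335.61, 294.63 and 290.96 and paused values 305.69, 301.26, 375.49 and 342.1. At the site 5176 bp from Sesn2, control values were 289, 243.65, 348.82 and 308.59 and paused values 266.47, 365.93, 273.08 and 353.81. The groups overlapped at both, and the log2 changes of 0.17 (SE 0.11, adjusted p = 0.306) and 0.08 (SE 0.12, adjusted p = 0.705) were not called. The change at Sesn2 and Tcf7l1 was below 0 under TMM, total-read and loess scaling.

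By distance alone, whatever gene was nearest, 9 members lay within 200 kb of a gene of the pluripotency list; this search was added after the values were seen. Those called were the Platr22 start, 146.4 kb from Nr5a2, the Vash1 site, 166.6 kb from Esrrb, and a site 62.9 kb from Lin28a (log2 change 0.38, SE 0.10, adjusted p = 0.00838). In the same fit, 23.2% of all members and 11.0% of all tested peaks were called higher. How many members lie within 200 kb of other gene lists of this length was not counted. Another site, 92.5 kb from Lin28a, had a log2 change of 0.22 (SE 0.10, adjusted p = 0.149), and one 187.4 kb from Pou5f1 a change of 0.15 (SE 0.10, adjusted p = 0.360). Besides the peak near Slc2a3, the other 3 were 168.7 kb from Tfcp2l1 (0.05), 152.4 kb from Dppa5a (0.06) and 158.1 kb from Tdgf1 (0.19), with no call. A member inside the non-coding gene Pvt1, 102.6 kb from Myc, had means of 361.18 ± 56.7 and 427.61 ± 46.5 (SD, n = 4 each) and a log2 change of 0.25 (SE 0.11, adjusted p = 0.124).

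In the authors' deposited table, 78 members had an FDR under 0.05 and all 78 were higher in paused cells, where 11.0% of all peaks had such an FDR and 9.19% had one and were higher. Of the 71 members called here, 69 were among the 78, the exceptions being the Gm10190 start near Sos1 and the Abt1 site. At the Gm10190 start the authors' log2 fold is 0.28 with an FDR of 0.181. At the Abt1 site the authors' deposited table gives a log2 fold of -0.26 with an FDR of 0.0735.

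The strength minimum cuts through a continuous range. Just inside it were sites near Ptpdc1, Rybp and Tcf15, with means of 300.24, 300.06 and 300.01, and just outside were distal sites near Nedd9 (299.56), Mad2l2 (298.56) and Cast (298.47). At the distance limit, the members nearest to a gene end were 5007 bp from Zfp286 and 5039 bp from Sp2, and strong peaks 4979 bp from Slc29a2 and 4971 bp from Bicdl1 were left out.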

How the data were processed

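ATAC-seq was measured in 4 control and 4 paused libraries, read as 150 bp pairs per the labels' protocols. Groups come from sample titles, and columns were matched through names in the sample descriptions. The authors deposited 1 table of 201 bp peaks in which each library's value is a signal, reads per peak divided by a factor per library; this was worked out from the values, 100% of which were whole multiples of 1 step within rounding (0.0051), so that whole reads could be recovered. How the factors were made is not given in the sources used here. The authors also deposited log2 concentrations and folds, and p-values with FDR, of their own comparison, per the file headers; these are named as the authors' where used. The submitters' processing notes name, with no role or order, FastQC, Trim Galore, Bowtie2 2.4.1, MACS3 3.0.3, DiffBind 3.16.0 and the mm10 build.

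Peaks with a mean of at least 10 were tested with limma-trend (limma 3.58.1, R 4.3.3) on log2(value + 1), with no covariates, and called at a Benjamini-Hochberg adjusted p under 0.05 over all 127402 tested; log2 changes are on the log2(value + 1) scale. The fit was tried on simulated data with planted changes larger than the called rises here and no shift between the groups. That trial does not bear on calls of the size found here. Alternatives were edgeR 4.0.16 and DESeq2 1.42.0 on the recovered reads, TMM, total-read and loess scaling (span 0.3), pseudocounts of 0.1 and 10, other filters, the replicate number as a block, each library left out, and other limits of strength and distance; the set without start members was added after seeing the data. All 8 per-sample columns were used. Depth per library, as reads in peaks, ranged from 4434037 to 21161767; PCR copies of a molecule count as reads, so counting errors cover sampling alone.

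Genes, their spans and start windows are from RefSeq GRCm38.p6; exons and introns were not distinguished. Members and gene lists were chosen with earlier results of these data known. Named peaks are the 12 strongest members, the 10 largest called rises and falls (and the 3 smallest p where under 3 were called), members nearest within 100 kb to a gene of a list, and the 3 peaks on either side of the strength minimum; start members with sequences and sites near Myc or pluripotency genes were picked after their values were seen.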

Additional observations from a re-analysis of the deposited data

Results flagged for a closer look

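Among 74 groups of 4 values at named members and library totals, 5 held a library far from the other 3 by Dixon's 95% criterion, which chance meets about 1 time in 20. Paused replicate 3 was high at the internal start of Evi5, at 549.27 against 466.29 to 474.11, and at the site near Atp6v1b2, at 373.94 against 301.26 to 311.64. Control replicate 1 was low at the Brd1 site, at 211.91 against 268.73 to 277.74. Paused replicate 2 was high at the site near Rybp, at 345.42 against 317.23 to 319.63. Control replicate 1 had 21161767 reads in peaks, where the other control libraries had 4434037 to 6262445.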

How the results depend on the processing

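The count of 71 called members became 15 with TMM rescaling, 11 with scaling to total reads, 8 after the loess correction, 18 in edgeR with TMM and 11 in DESeq2; their median log2 change, 0.22, became 0.11, 0.058, 0.0067, 0.12 and 0.12. It stayed above 0 in every fit run. The members called higher were 4.64%, 3.31%, 1.99%, 5.63% and 3.31% of all 302 in these fits, against 5.79%, 4.51%, 5.10%, 7.13% and 3.00% of all peaks tested, so that there the members' shares were near or below the background. Leaving out one library gave counts from 20 to 83 and medians from 0.18 to 0.24. With the replicate number as a block, 125 were called (41.1% higher, against 13.6% of all tested peaks). Correlations of same-numbered libraries were 0.08, 0.04, 0.13 and 0.04, and those of other control and paused libraries ran from -0.10 to 0.07. Control replicates 1, 3 and 4 correlated best with the paused replicate of the same number, and control replicate 2 with paused replicate 1. The numbers were not taken to pair the samples, and whether they do is not settled by these values. A minimum of 200 gave 408 calls among 1542 peaks (26.1% higher) and of 400 gave 7 among 32 (18.8% higher). A minimum of 300 on the control mean gave 33 among 199 (15.6% higher), and on the paused mean 132 among 438 (29.9% higher). The difference in the members' share of reads, 0.0543 percentage points, was 0.232 with a minimum of 200 and 0.0273 to 0.0757 without one library. Over the other settings these results moved by less than the spread or 1.5 times.

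For 34 named peaks in 19 settings, 537 of the values kept direction and call, 80 lost a call, 7 gained one and 22 changed sign. After the loess correction the log2 changes were -0.018 at Hdac4, -0.038 at Sesn1, -0.014 at Ddx50, -0.054 at Ptpdc1, -0.051 at Etv5, -0.13 at Sesn2, -0.14 at Tcf7l1, -0.026 at Eif4g2 and -0.091 at Mesd (nearest Tlnrd1). With total reads they were -0.0027 at Ptpdc1, -0.078 at Sesn2, -0.084 at Tcf7l1 and -0.039 at Tlnrd1. At Sesn2 and Tcf7l1 they were -0.030 and -0.036 with TMM in limma-trend, -0.017 and -0.026 in edgeR with TMM, and -0.013 and -0.020 in DESeq2. Leaving out one library gave -0.13 to 0.015 at Atad1 (the latter without control replicate 3), -0.014 (without control replicate 2) to 0.16 at Sesn2 and -0.0070 (without paused replicate 3) to 0.14 at Tcf7l1. None of these sign changes was at a called member, and the cause was not tested. The counting error of a median member, 0.05 to 0.10 on the log2 scale, limits what a single library can show.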

Other observations

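The 10 members with a log2 change below 0 included, besides the Abt1 site, a peak 8060 bp from Atp6v1b2, a subunit gene of the vacuolar proton pump, and an internal start of Atad1, which encodes an ATPase that clears mislocalised membrane proteins. At the Atp6v1b2 site, control values were 306.63, 303.36, 401.31 and 364.44 and paused values 305.69, 301.26, 373.94 and 311.64. These overlapped, and the log2 change was -0.09 (SE 0.11, adjusted p = 0.649 in limma-trend); after the loess correction it was -0.29 (adjusted p = 0.0309), the second of the 2 falls called there. At the Atad1 start, control values were 282.78, 323.67, 384.38 and 346.8 and paused values 332.23, 287.06, 347.56 and 316.32. The groups overlapped there as well, with a log2 change of -0.05 (SE 0.11, adjusted p = 0.781 in limma-trend).

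In the pairs of members within 10 kb of each other, 3 had one called peak and one that was not. On the deposited scaling used here, 23.2% of all members and 11.0% of all tested peaks were called higher. At Nlrp12 the log2 changes were 0.39 (SE 0.11) and 0.14 (SE 0.11), and at Src, a tyrosine kinase gene, 0.36 (SE 0.10) and 0.10 (SE 0.11); the difference within a pair was not tested. At Ptma, the gene of prothymosin alpha, neither was called, with log2 changes of 0.18 and 0.27.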
